A study of Homo sapiens with 6 samples.

Results

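The 49 genes described here build, start and run the DNA replication fork: the MCM helicase subunits, the origin licensing and firing factors, polymerases, sliding clamp and clamp loader, ligase and flap nuclease, histone chaperones, nucleotide enzymes and a few regulators of the entry into S phase. They were chosen by gene symbol from knowledge of the pathway, with earlier results of these data known. Each symbol was matched to a row of the deposited table. All 49 of 49 had a row among the 15761 genes of the table, and all 49 passed the filter on low counts that left 12449 genes for testing. RNA sequencing compared cultures of SK-MES-1, a long-established human cell line of squamous lung carcinoma (wild type in the labels), after 72 h with or without exosomes, the small membrane vesicles that cells release. The exosome group (3 libraries) received complete medium with 20 µg/ml of exosomes that lung fibroblasts had released, the fibroblasts coming from idiopathic pulmonary fibrosis (IPF), in which the lung scars, and the control group (3 libraries) received no exosomes. No group received vesicles of another source, so the effect of any vesicles and that of IPF fibroblast vesicles cannot be told apart. Replicates are numbered in the labels with no word on how separate the cultures were. The p-values thus reflect only how far the 3 samples of a group differed, in the gene itself and pooled over genes. That spread may be technical.

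In a eukaryotic cell, replication is licensed in G1 when the origin recognition complex (ORC), CDC6 and CDT1 load the MCM2-7 ring onto origins. In S phase the kinase CDC7 with its activator DBF4, together with CDK2 bound to cyclin E or A, turns the loaded ring into a running helicase by adding CDC45 and the GINS complex. Polymerases alpha, delta and epsilon then copy the strands, held by the clamp PCNA. Many of these genes are known targets of E2F transcription factors, which are released when the retinoblastoma protein is phosphorylated late in G1, and their transcripts are known to peak around the G1/S boundary.

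The members' promoters were searched for 2 forms of the E2F site, TTTCCCGC and TTTGGCGC, on both strands. On opposite strands the second form can overlap itself, in which case a promoter still counts once. RefSeq promoters (GRCh38.p14, 250 bases before to 50 after the annotated start) matched 42 of the 49 members, all except MCM4, MCM5, GINS4, POLD3, RPA2, RPA3 and CCNE2. At least 1 site lay in 17 of the 42 (40.5%, 95% exact Clopper-Pearson interval 25.6% to 56.7%), against 2.27% of all 35116 promoters in the table and 3.73% of the 9828 promoters of tested genes. The site was present in 11 of 23 matched members that were higher with exosomes and in 6 of 19 that were not (47.8% and 31.6%), with intervals that overlapped (26.8% to 69.4% and 12.6% to 56.6%). With forms 1 base shorter, TTCCCGC and TTGGCGC, the order was the other way, at 60.9% of members that were higher and 68.4% of those that were not. Of the members that rose, 10 held a site before the start, and 6 of them, picked after the matches were seen to show several roles, are printed below. Each is the 250 bases before the start, read 5′ to 3′ on the gene's strand, with the E2F site in capitals (GCGGGAAA is TTTCCCGC on the other strand).
CDT1, chr16:88803539-88803788, plus strand: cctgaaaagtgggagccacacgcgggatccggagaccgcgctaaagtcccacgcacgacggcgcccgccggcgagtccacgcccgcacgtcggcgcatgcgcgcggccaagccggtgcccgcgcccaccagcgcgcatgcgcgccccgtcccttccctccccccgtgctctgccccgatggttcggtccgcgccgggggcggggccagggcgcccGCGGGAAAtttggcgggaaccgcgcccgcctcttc
TYMS, chr18:657403-657652, plus strand: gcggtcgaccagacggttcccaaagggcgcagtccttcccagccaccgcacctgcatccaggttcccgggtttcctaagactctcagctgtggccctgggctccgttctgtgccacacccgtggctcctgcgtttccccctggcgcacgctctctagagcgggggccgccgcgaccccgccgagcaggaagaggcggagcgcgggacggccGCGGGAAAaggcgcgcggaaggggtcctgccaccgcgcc
UHRF1, chr19:4909251-4909500, plus strand: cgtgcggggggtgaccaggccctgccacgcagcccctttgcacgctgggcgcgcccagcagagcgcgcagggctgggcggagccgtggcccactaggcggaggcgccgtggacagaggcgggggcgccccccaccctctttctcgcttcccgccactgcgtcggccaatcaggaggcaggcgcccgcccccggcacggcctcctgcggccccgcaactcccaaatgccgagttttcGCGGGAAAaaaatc
PCNA, chr20:5126623-5126872, minus strand: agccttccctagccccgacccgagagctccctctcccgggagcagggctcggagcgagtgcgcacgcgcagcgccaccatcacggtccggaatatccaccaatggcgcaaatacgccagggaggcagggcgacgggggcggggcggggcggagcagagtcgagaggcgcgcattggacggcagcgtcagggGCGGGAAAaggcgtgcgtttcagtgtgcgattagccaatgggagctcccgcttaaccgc
GINS2, chr16:85688955-85689204, minus strand: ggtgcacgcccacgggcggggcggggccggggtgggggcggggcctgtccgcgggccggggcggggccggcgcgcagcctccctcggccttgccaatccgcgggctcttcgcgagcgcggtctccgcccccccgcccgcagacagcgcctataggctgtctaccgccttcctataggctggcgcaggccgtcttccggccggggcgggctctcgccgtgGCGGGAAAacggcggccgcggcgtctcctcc
LIG1, chr19:48170345-48170594, minus strand: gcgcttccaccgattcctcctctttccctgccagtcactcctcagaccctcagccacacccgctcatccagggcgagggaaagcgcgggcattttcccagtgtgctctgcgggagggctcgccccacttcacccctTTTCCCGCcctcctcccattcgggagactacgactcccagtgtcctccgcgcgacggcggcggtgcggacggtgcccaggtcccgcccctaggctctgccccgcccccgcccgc
Over all 10, the first base of the site lay 14 bases before the start in UHRF1, 18 in POLE, 20 in E2F1, 31 in GINS2, 35 in CDT1, 39 in TYMS, 59 in PCNA, 114 in LIG1, 174 in MCM3 and 187 in MCM7. A match of letters is a description of these windows and does not show that a factor bound them in these cells. The promoters of FEN1, CHAF1A and POLD1, which also rose, held neither form.

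The libraries had 11346639 to 13334508 counts and 14294 to 14540 detected genes. Control library 3 and exosome library 3 stood apart from the other 2 libraries of their groups (chi-square per gene 12.1 to 16.2 and 7.41 to 9.72, against 2.31 and 3.18 between libraries 1 and 2), so the main counts are given with and without them. Across all tested genes, fold changes followed the GC content of the transcript (Spearman's rho 0.62 over 12449 genes, which are not independent replicates), and values with the trend on GC content and transcript length removed within each library are called corrected. Scaling by library totals alone, in place of TMM factors, moved the median log2 fold change of all genes from -0.0042 to 0.078, and the calls from 3190 higher and 3244 lower to 3811 higher and 2495 lower. With that scaling 32 members were higher and 1 was lower (background 30.6% and 20.0%). All 12 squamous and epithelial markers had a row, at a sum of 5368 to 5489 CPM in control and 4480 to 4719 CPM with exosomes. Of these, KRT8, KRT18 and KRT19 were abundant (lowest library 791 CPM, for KRT18), while the squamous markers KRT5, KRT6A and KRT14 stayed at or below 0.450 CPM in every library and TP63 at 1.02 to 2.40 CPM, so the defining squamous keratins were nearly absent from this line. Of 9 fibroblast markers 7 had a row, and their summed level was 104 to 114 CPM in control and 48.9 to 54.2 CPM with exosomes. Nearly all of it came from COL1A1 (mean 60.2 CPM in control and 30.6 CPM with exosomes) and COL1A2 (40.8 and 13.6 CPM). Both were lower with exosomes, as counted and corrected. COL3A1, PDGFRA, THY1 and FAP were below 0.5 CPM in all libraries. Of 6 leukocyte markers 5 had a row, at a sum of 164 to 196 CPM in control and 257 to 277 CPM with exosomes, nearly all from CD68 and CD14, with PTPRC and CD3E below 0.5 CPM in all libraries. All 4 endothelial markers had a row, at a sum of 10.6 to 12.3 CPM in control and 11.7 to 13.3 CPM with exosomes, with VWF below 0.5 CPM in all libraries. The part of these marker shifts in the results was not tested.

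Replication genes were mostly higher with exosomes, by modest amounts. Of the 49 members, 28 were higher and 1 was lower in edgeR's quasi-likelihood test (adjusted p under 0.05), where 25.6% of all tested genes were higher and 26.1% lower. The median log2 fold change of all 49 was 0.32, against -0.0042 over all tested genes, and the 28 rises ranged from 1.16-fold (CDC6) to 1.95-fold (CDT1), with 6 at 1.5-fold or more. Corrected, 29 were higher and 1 lower (background 17.9% and 17.5%), with a median of 0.28 against -0.0072. The 1 lower gene was ORC2 as counted and RFC2 corrected. The 2 sets of rises shared 24 genes: the correction ended the calls of POLD1, POLD2, TK1 and E2F1 and added MCM6, CDC7, GINS1, GINS3 and POLA1. Other settings changed little: 28 higher and 1 lower with RLE factors (background 26.0% and 25.6%), with limma-voom (25.5% and 26.0%), with a filter of 1 CPM in 3 libraries (26.2% and 26.5%) and with no filter (21.2% and 19.8%), and 25 higher and 1 lower without control library 2 (22.9% and 22.0%). Without control library 3 and exosome library 3 together, 30 members were higher and 4 lower (background 28.7% and 28.8%). In bulk RNA, a larger share of cells in S phase and more of these transcripts per cell cannot be told apart.

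**Figure D1:**
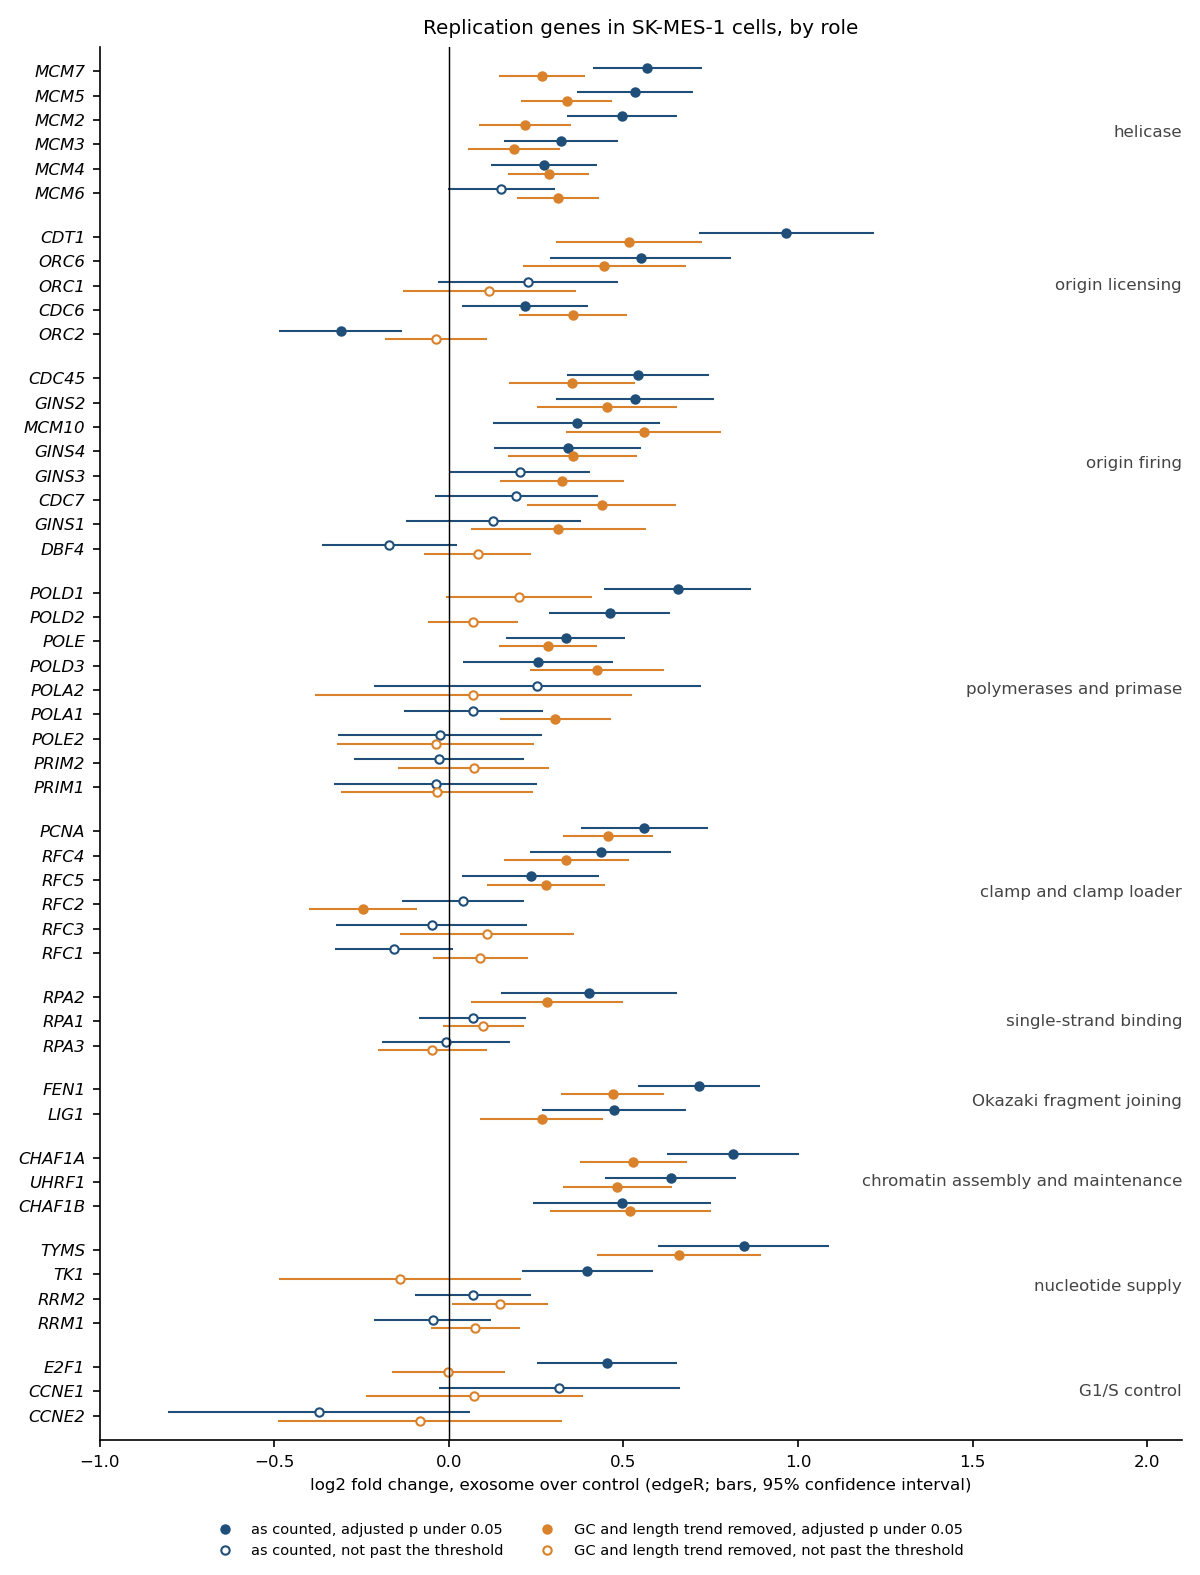
Log2 fold change of exosome over control for each of the 49 genes, grouped by role; bars are 95% confidence intervals from edgeR (n = 3 per group), filled points have an adjusted p under 0.05. Blue is the value as counted and orange the value with the GC and length trend removed. Most points lie to the right of 0, from CDT1 at 0.97 down to CCNE2 at -0.37.

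The replicative helicase is a ring of 6 related ATPases, MCM2 to MCM7, that unwinds the duplex ahead of the fork. Its 6 transcripts had all 3 exosome libraries above all 3 control libraries, and 5 of the 6 rose; a gap of this kind was seen in 35.0% of all tested genes. MCM7 had 257, 258 and 276 CPM (CPM, counts divided by the library total and scaled to 1e6) in the controls, libraries 1 to 3 in order here and below, and 439, 421 and 381 CPM in the exosome libraries. The lowest exosome library thus stood well above the highest control library. The fitted log2 fold change was 0.57 ± 0.076 (edgeR adjusted p = 3.75e-06, corrected 0.27). For log2 fold changes, ± gives the standard error, here and below. CPM does not include the TMM factors of the fit, so CPM ratios can differ from the fitted fold changes. MCM7 lies on chromosome 7, from 100092728 to 100101940 (GRCh38, GENCODE 29), and shares exon bases with AP4M1 on the opposite strand.

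MCM5 had 75.1, 71.4 and 78.1 CPM in control and 121, 116 and 107 CPM with exosomes, and its log2 fold change was 0.53 ± 0.080 (edgeR adjusted p = 1.45e-05; corrected 0.34). MCM2 had 114, 117 and 127 CPM and 182, 185 and 168 CPM, a log2 fold change of 0.49 ± 0.076 (edgeR adjusted p = 1.81e-05; corrected 0.22). For both subunits exosome library 3 was the lowest of its group and still above every control library. MCM3 went from 91.6, 102 and 106 CPM to 135, 136 and 124 CPM (log2 fold change 0.32 ± 0.079, edgeR adjusted p = 0.00172; corrected 0.19), and MCM4 from 169, 175 and 185 CPM to 231, 226 and 218 CPM (0.27 ± 0.073, edgeR adjusted p = 0.00364; corrected 0.29). MCM6 had 144, 149 and 158 CPM in control and 177, 175 and 178 CPM with exosomes. Its groups did not overlap in CPM, but its log2 fold change of 0.15 ± 0.074 missed the threshold with TMM factors (edgeR adjusted p = 0.0937) and passed with library totals (0.23), without control library 3 (0.19) and with the correction (0.31). Corrected, all 6 subunits rose, by 0.19 to 0.34, and the order of the subunits changed: MCM7, first as counted, came after MCM5, MCM6 and MCM4.

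**Figure D2:**
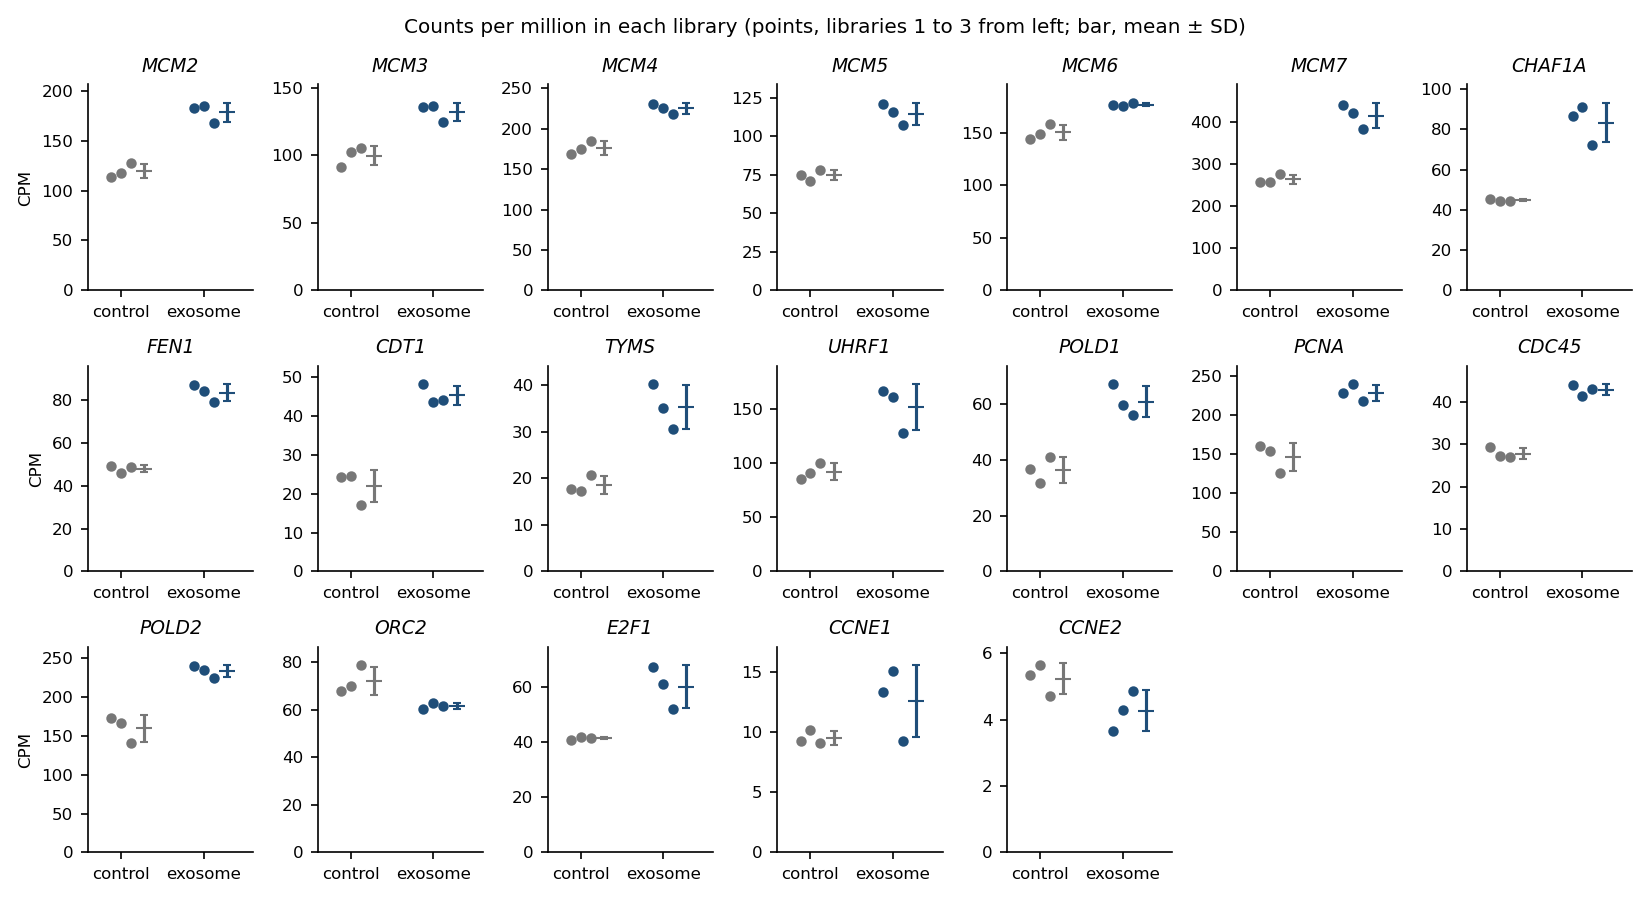
CPM in each library (points, libraries 1 to 3 from left to right; bar, mean ± SD, n = 3) for the MCM2-7 subunits, the other members among the 12 with the smallest adjusted p, ORC2 and the G1/S control genes; each axis starts at 0. The exosome points lie above the control points in every panel except those of ORC2, where they lie below, and of CCNE1 and CCNE2, where the groups overlap.

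Among the licensing factors, CDT1 had the largest fold change of all 49 members. CDT1 delivers the MCM ring to ORC and is destroyed in S phase so that no origin fires again. It had 24.2, 24.5 and 17.2 CPM in control and 48.2, 43.7 and 44.2 CPM with exosomes. Every exosome library stood far above every control library. The log2 fold change was 0.97 ± 0.12 (95% interval 0.72 to 1.22, edgeR adjusted p = 1.93e-06), and 0.52 corrected. Control library 3 was the lowest, at 17.2 CPM. CDT1 lies on chromosome 16 from 88803213 to 88809258.

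CDC6, the ATPase that loads the ring together with CDT1, rose from 52.9 ± 2.98 to 65.1 ± 0.638 CPM. For CPM, values are mean ± SD, n = 3, here and below. The log2 fold change of CDC6 was 0.22 ± 0.087 (edgeR adjusted p = 0.0404, corrected 0.35). That call ended without control library 2 or 3 or any 1 of the 3 exosome libraries (edgeR adjusted p = 0.0689 to 0.0954; 0.000591 to 0.0954 over all alternatives). ORC6, the smallest subunit of the origin recognition complex, rose from 18.8 ± 2.63 to 29.01 ± 3.91 CPM (0.55 ± 0.12, edgeR adjusted p = 0.000925; corrected 0.44). ORC1, the subunit whose level is known to cycle, had 18.8 ± 2.003 and 23.3 ± 2.69 CPM, and its log2 fold change of 0.23 (95% interval -0.032 to 0.48) did not pass, though it did with library totals and without control library 3.

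ORC2 was the only member that fell. It had 67.7, 69.9 and 78.7 CPM in control and 60.1, 62.8 and 61.6 CPM with exosomes, with no overlap between groups, and its log2 fold change was -0.31 ± 0.086 (edgeR adjusted p = 0.00438). Corrected, the value was -0.037 and did not pass. The core subunits outside the members gave values of the same sign: ORC3 fell by 0.43 and ORC4 by 0.44 on the log2 scale, while ORC5, chosen after its values were seen, had -0.18 and did not pass. Corrected, ORC3 remained lower (-0.26), and ORC4 (-0.027) and ORC5 (-0.095) did not pass. Within one complex, ORC6 was thus higher and ORC2, ORC3 and ORC4 were lower as counted; GC content was 47.5% for ORC6 and 40.1% for ORC2.

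Of 8 origin firing factors 4 rose (7 corrected); here and for the smaller groups below, the background is that of all tested genes, 25.6% higher as counted and 17.9% corrected. CDC45, which joins MCM2-7 and GINS in the active helicase, had 29.4, 27.1 and 26.9 CPM in control and 44.1, 41.5 and 43.05 CPM with exosomes, and its log2 fold change was 0.54 ± 0.098 (edgeR adjusted p = 0.000108; corrected 0.35). The spread of CDC45 within each group was small beside the gap between them. GINS2 rose from 19.4 ± 1.41 to 29.7 ± 0.683 CPM (0.53 ± 0.11, edgeR adjusted p = 0.000357; corrected 0.45) and GINS4 from 27.5 ± 2.41 to 36.8 ± 0.653 CPM (0.34 ± 0.10; corrected 0.35). The other 2 GINS subunits did not pass as counted but did after correction, GINS1 narrowly: GINS3 had 0.20 (corrected 0.32) and GINS1 0.13 (corrected 0.31), with control library 3 of GINS1, at 35.0 CPM, above exosome libraries 2 and 3. With the replicate number as a block as well, the corrected call of GINS1 ended (log2 fold change 0.32).

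MCM10, a scaffold needed for the helicase to start, rose from 19.99 ± 1.56 to 27.3 ± 2.66 CPM (0.37 ± 0.12, edgeR adjusted p = 0.0112; corrected 0.56), a call that ended without exosome library 2 (edgeR adjusted p = 0.0894; 0.000342 to 0.0894 over all alternatives). CDC7 and DBF4, the kinase and its activator, differed in sign: CDC7 had 0.19 (95% interval -0.041 to 0.43; corrected 0.44, past the threshold) and DBF4 -0.17 (95% interval -0.36 to 0.022; corrected 0.082, not past it). Neither passed as counted, and the difference between them was not tested. DBF4 was lower without exosome library 3 (log2 fold change -0.27, edgeR adjusted p = 0.0150; 0.00696 to 0.431 over all alternatives).

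Of 9 polymerase and primase genes 4 rose (3 corrected). Polymerase delta makes the lagging strand, and all 3 of its listed subunits rose as counted. POLD1, the catalytic subunit, had 36.7, 31.8 and 41.1 CPM in control and 67.2, 59.7 and 56.02 CPM with exosomes, and its log2 fold change was 0.65 ± 0.10 (edgeR adjusted p = 2.17e-05). POLD2 had 173, 167 and 140.4 CPM and 241, 235 and 225 CPM, a log2 fold change of 0.46 ± 0.084 (edgeR adjusted p = 0.000111). In both genes the groups were far apart, but both calls ended with the correction (POLD1 0.20, POLD2 0.069); their transcripts are GC-rich, at 65.0% and 59.1%. POLD3, at 43.0% GC, had 0.26 ± 0.10 as counted and 0.42 corrected. The uncorrected call of POLD3 ended without control library 1 or 2 or exosome library 2 (edgeR adjusted p = 0.0909, 0.0950 and 0.247; 0.00116 to 0.247 over all alternatives).

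POLE, the catalytic subunit of the leading-strand polymerase epsilon, rose from 64.9 ± 3.28 to 86.6 ± 4.58 CPM (0.33 ± 0.082, edgeR adjusted p = 0.00188; corrected 0.28), whereas its partner POLE2 had -0.026 (95% interval -0.32 to 0.27) and did not pass. The 4 genes of polymerase alpha and primase, which lay down the RNA-DNA primer, did not pass as counted. POLA1 had 0.069 (corrected 0.31, past the threshold), POLA2 0.25, PRIM1 -0.038 and PRIM2 -0.028. POLA2 was scarce, at 3.82 ± 0.940 and 4.84 ± 0.699 CPM, so its 95% interval of -0.22 to 0.72 is wide. The 95% intervals of PRIM1 (-0.33 to 0.25) and PRIM2 (-0.27 to 0.22) include changes in either direction, and changes within them were not excluded.

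PCNA, the ring that tethers polymerases to DNA, was the member with the smallest adjusted p after correction. It had 160.2, 154 and 126 CPM in control and 228, 239.9 and 219 CPM with exosomes. All exosome libraries exceeded all control libraries, of which control library 3 was the lowest, and the log2 fold change was 0.56 ± 0.088 (edgeR adjusted p = 2.19e-05; corrected 0.46). PCNA lies on chromosome 20 from 5114953 to 5126626. The 5 subunits of the loader that opens the PCNA ring, replication factor C, did not move together. RFC4 rose from 30.6 ± 1.63 to 43.8 ± 1.39 CPM (0.43 ± 0.098, edgeR adjusted p = 0.000822; corrected 0.34). RFC5 rose by 0.23 (corrected 0.28), with all exosome libraries above all control libraries; its call ended without any 1 of the 6 libraries (edgeR adjusted p = 0.0537 to 0.145; 0.00854 to 0.145 over all alternatives). RFC1 (-0.16, 95% interval -0.33 to 0.011), RFC2 (0.041, -0.13 to 0.22) and RFC3 (-0.050, -0.32 to 0.22) did not pass. RFC2 was lower after correction (-0.25), the one member for which that was so, and RFC1 was lower without control library 3 (-0.19, edgeR adjusted p = 0.0447) or exosome library 3 (-0.22, edgeR adjusted p = 0.0277), with 0.000362 to 0.437 over all alternatives.

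Replication protein A coats single-stranded DNA as a trimer. Its subunit RPA2 rose from 26.2 ± 4.67 to 36.6 ± 2.29 CPM (0.40 ± 0.12, edgeR adjusted p = 0.00854; corrected 0.28), with control library 3 the lowest at 20.8 CPM. Without control library 3 and exosome library 3 the RPA2 call ended (edgeR adjusted p = 0.0537; 0.000853 to 0.0537 over all alternatives). RPA1, the large subunit, had 184 ± 7.24 and 204 ± 4.88 CPM (0.068, 95% interval -0.085 to 0.22), and RPA3 52.4 ± 1.74 and 55.1 ± 3.52 CPM (-0.0081, -0.19 to 0.17); neither passed.

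Both genes that finish Okazaki fragments, the short pieces of the lagging strand, rose. The flap nuclease gene FEN1 had 49.05, 45.9 and 48.7 CPM in control and 86.9, 84.1 and 79.1 CPM with exosomes, a 1.64-fold difference (log2 fold change 0.72 ± 0.085, edgeR adjusted p = 9.29e-07; corrected 0.47). The spread within each FEN1 group was small beside the gap between them. LIG1, the ligase that seals the nicks, rose from 29.8 ± 1.62 to 43.9 ± 3.88 CPM (0.47 ± 0.10, edgeR adjusted p = 0.000447; corrected 0.27). FEN1 shares exon bases with TMEM258 and FADS2, so reads in the shared part cannot be assigned with certainty.

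The genes that restore chromatin behind the fork (3 of 3) rose with and without correction. CHAF1A, the large subunit of the histone chaperone CAF-1, had the smallest adjusted p of all members: 45.4, 44.7 and 44.3 CPM in control and 86.6, 91.04 and 72.5 CPM with exosomes (0.81 ± 0.092, edgeR adjusted p = 5.43e-07; corrected 0.53). The control libraries lay close together, and exosome library 3, the lowest of its group, was still well above them. CHAF1A shares exon bases with UBXN6 on the opposite strand. Its partner CHAF1B rose from 13.1 ± 0.454 to 19.6 ± 0.679 CPM (0.49 ± 0.12; corrected 0.52). UHRF1, which brings the methyltransferase DNMT1 to newly copied DNA, had 85.4, 90.6 and 100.4 CPM in control and 166, 161 and 127 CPM with exosomes (0.63 ± 0.091, edgeR adjusted p = 8.65e-06; corrected 0.48). As in CHAF1A, exosome library 3 of UHRF1 was the lowest of its group.

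Of 4 nucleotide enzymes 2 rose (1 corrected). TYMS, thymidylate synthase, had 17.7, 17.2 and 20.8 CPM in control and 40.2, 35.2 and 30.6 CPM with exosomes, a 1.80-fold rise (log2 fold change 0.84 ± 0.12, edgeR adjusted p = 6.70e-06). The lowest exosome library of TYMS, library 3, stood above the highest control library, also library 3. Corrected, TYMS had the largest value of all members, 0.66. TYMS lies on chromosome 18 from 657604 to 673578 and shares exon bases with ENOSF1 and TYMSOS on the opposite strand. TK1, the thymidine kinase of the salvage route, rose from 64.4 ± 8.93 to 89.7 ± 2.49 CPM (0.40 ± 0.091, edgeR adjusted p = 0.000996), but the direction turned with the correction (-0.14, not past the threshold). Neither subunit of ribonucleotide reductase, which makes all deoxynucleotides, passed: RRM1 had 159 ± 1.47 and 163 ± 14.3 CPM (-0.047, 95% interval -0.21 to 0.12) and RRM2 92.3 ± 7.50 and 102 ± 1.14 CPM (0.070, -0.097 to 0.24).

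The regulators of S phase entry gave less certain results. E2F1, a transcription factor that activates many of the genes above, had 40.9, 41.9 and 41.5 CPM in control and 67.2, 61.1 and 51.8 CPM with exosomes (0.45 ± 0.097, edgeR adjusted p = 0.000540). The 3 control libraries lay close together and below all exosome libraries, yet the corrected value was -0.0019 (95% interval -0.16 to 0.16); the E2F1 transcript has a GC content of 62.5%. CCNE1, cyclin E1, had 9.28, 10.2 and 9.13 CPM and 13.4, 15.1 and 9.30 CPM, and its exosome library 3 fell within the control range (0.32, 95% interval -0.027 to 0.66, not past the threshold). Without exosome library 3 CCNE1 passed (0.48, edgeR adjusted p = 0.0135; 0.0115 to 0.774 over all alternatives). CCNE2, cyclin E2, had 5.35, 5.64 and 4.72 CPM and 3.65, 4.29 and 4.87 CPM, with groups that overlapped (-0.37, 95% interval -0.80 to 0.061); it passed without control library 3 and exosome library 3 (-0.56, edgeR adjusted p = 0.0485; 0.0485 to 0.781 over all alternatives).

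The median over the 49 members of log2(CPM + 0.5) relative to the gene's mean was -0.22, -0.19 and -0.12 in the controls and 0.22, 0.23 and 0.13 in the exosome libraries, in replicate order. Library 3 of each group was nearest to the other group. Over all tested genes these medians were -0.040, -0.032 and -0.024 in control and 0.047, 0.053 and 0.020 with exosomes, so the members' shift was larger and had the same order. All 3 exosome libraries lay above all 3 control libraries in CPM for 34 members (35.0% of all tested genes) and below them for ORC2 alone (24.5% of all tested genes).

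**Figure D3:**
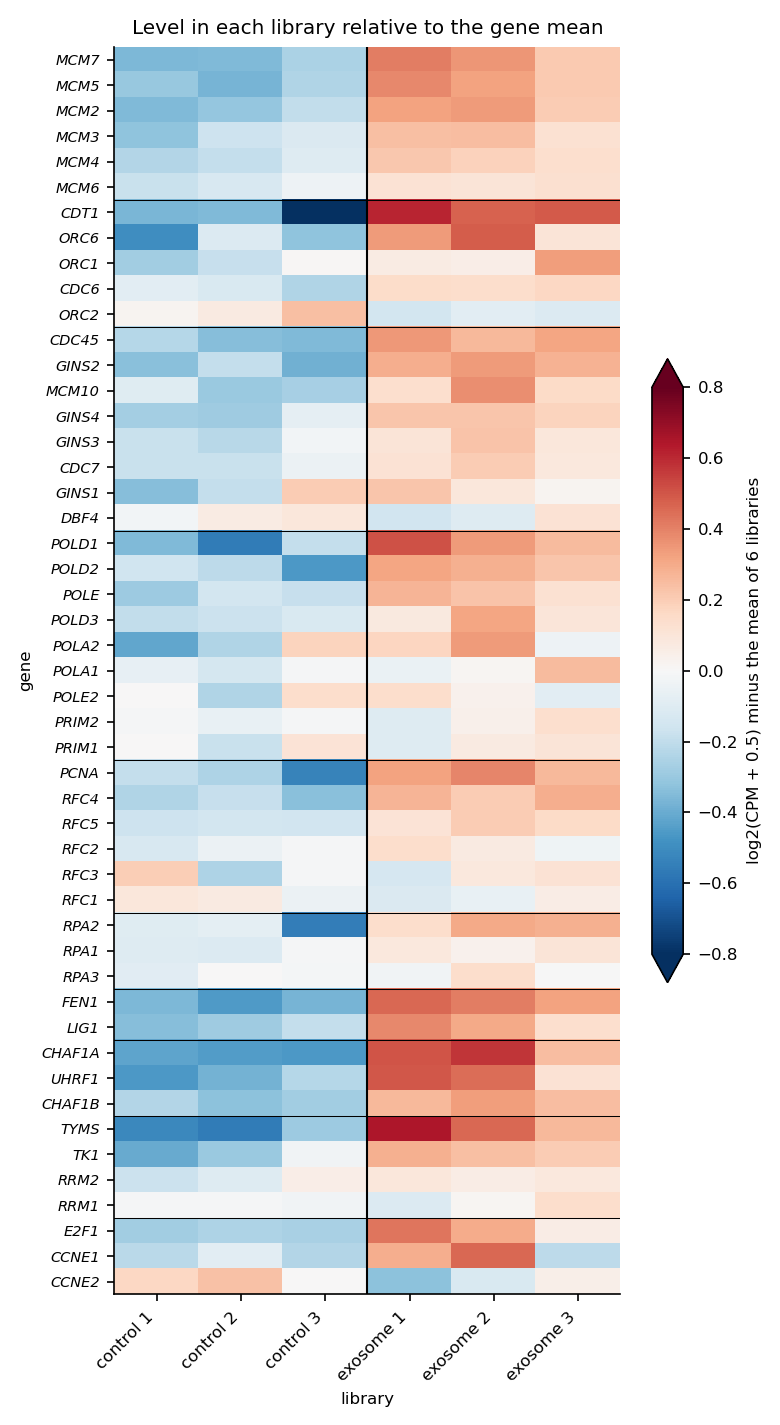
Level of each member in each of the 6 libraries, as log2(CPM + 0.5) minus the gene's mean over the libraries, with genes grouped by role as in the plot of fold changes; red is above and blue below the mean. Most rows are blue in the 3 control columns and red in the 3 exosome columns, and the row of ORC2 has the opposite colours.

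Transcript GC content moved with the members' fold changes, as it did with those of all genes. Over the 49 members Spearman's rho between GC content and log2 fold change was 0.74 as counted and 0.093 corrected; the points share the same 6 libraries. The members' median GC content was 48.1%, close to 48.4% over all tested genes. Tested genes were divided into 3 GC classes of about equal size. In the lowest class (up to 43.9%), 2 of 16 members were higher (background 3.88%) and 1 lower (background 52.8%). In the middle class, 14 of 20 members were higher (background 19.9%) and 0 lower (background 20.7%). In the highest class (from 54.0%), 12 of 13 were higher (background 53.1%) and 0 lower (background 4.7%) in edgeR's test; DESeq2, and edgeR at an unadjusted p under 0.05, gave the same counts of 0. Members thus had a larger share of rises than all tested genes of their GC class in each of the 3, with all 6 libraries. In the lowest class that share rests on MCM10 and POLD3 alone, and both calls ended without exosome library 2. The median of the members in the lowest class was -0.027, against -0.30 for all genes there. Corrected, 7 of 16, 14 of 20 and 8 of 13 were higher in the 3 classes (background 15.0%, 19.2% and 19.4%). Whether the trend comes from the libraries or the cells was not tested.

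**Figure D4:**
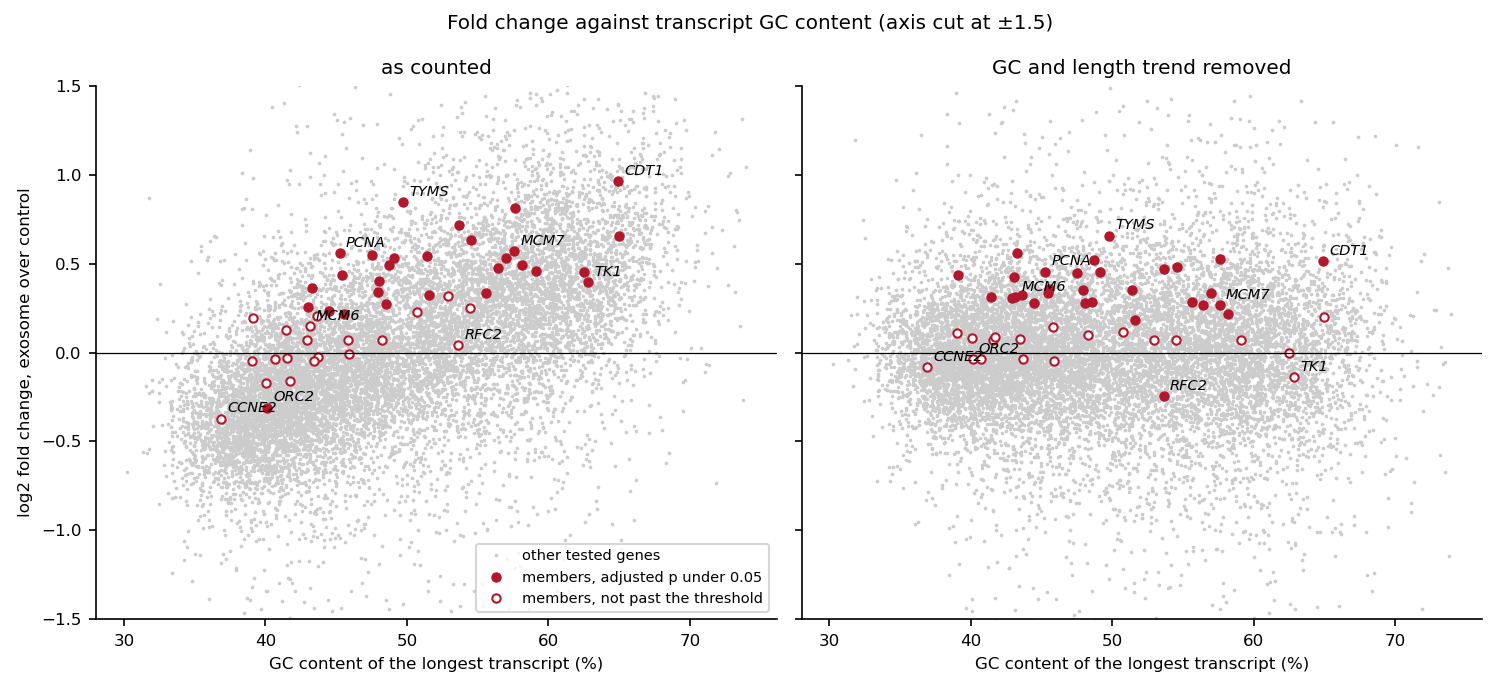
Log2 fold change of exosome over control against the GC content of the longest annotated transcript, for all 12449 tested genes (grey) and the 49 members (red; filled where the adjusted p is under 0.05), as counted (left) and with the GC and length trend removed (right). On the left the members climb with GC content like the other genes, with CDT1 highest, and on the right they spread around a level line, with TYMS highest; the axis is cut at ±1.5.

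Levels of different members were compared on the authors' FPKM, which divides by transcript length. In control cells PCNA had the highest value, 99.7 ± 12.4 FPKM (mean ± SD), followed by MCM7 at 72.2 ± 3.01, POLD2 at 69.7 ± 7.54 and RRM1 at 47.4 ± 0.437 FPKM. PCNA and MCM7 differed by more than their spread, whereas MCM7 and POLD2 did not. The median member had 12.97 FPKM, 7 members were above 40 FPKM, and 18 were below 10 FPKM. The MCM subunits, which form a ring with 1 copy of each, were not equal in transcript level: MCM5 had 21.2 ± 0.958, MCM3 31.04 ± 2.27, MCM2 32.98 ± 1.90, MCM6 40.3 ± 1.90 and MCM4 40.5 ± 1.88 FPKM, all below MCM7. MCM4 and MCM6 lay within each other's spread, and the means of MCM2 and MCM3 differed by slightly more than the SD of MCM2 and less than that of MCM3. The loading factors were scarcer, with 6.78 ± 1.28 FPKM for CDT1, 5.97 ± 0.635 for ORC1 and 10.99 ± 0.619 for CDC6, and the least abundant members were POLA2 (1.02 ± 0.251), CCNE2 (1.53 ± 0.137) and CHAF1B (2.93 ± 0.101). With exosomes PCNA reached 156 ± 7.13 and MCM7 113 ± 8.09 FPKM, and CDT1 14.01 ± 0.760. Counts per kilobase of the longest transcript had a Spearman's rho of 0.99 with FPKM over the 49 members. For some members, MCM2 and CDT1 among them, both values were identical. The rho therefore cannot show how far the rank order depends on the length used.

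Other genes of replication were taken from a list chosen alongside the members. Of 41 tested genes, 15 were higher and 5 lower (median log2 fold change 0.11; background 25.6% and 26.1%). Corrected, 23 were higher and 1 lower (median 0.22; background 17.9% and 17.5%), and with library totals 20 and 2 (background 30.6% and 20.0%). The same background shares apply to the lists that follow. The 4 genes of that list with the smallest adjusted p rose: RNASEH2A, a subunit of the RNase that removes primers (55.4 ± 1.77 to 92.2 ± 4.09 CPM; 0.65, corrected 0.49), the histone chaperone ASF1B (0.63, corrected 0.25), CHTF18, which heads an alternative PCNA loader (23.5 ± 2.03 to 63.7 ± 14.7 CPM; 1.36, corrected 0.95), and the helicase RECQL4 (0.77, corrected 0.32). The 5 that fell were ORC3 and ORC4, given above, MCMBP, which binds MCM proteins (-0.20), the firing factor MTBP (-0.40) and the chaperone ASF1A (-0.32). Corrected, ORC3 alone of these stayed past the threshold, and with library totals the calls of MCMBP (-0.12), MTBP (-0.31) and ASF1A (-0.24) ended too.

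In the E2F and retinoblastoma family 1 of 11 tested genes was higher and 6 were lower (corrected 3 and 2, where 2 of 11 is about the background share; library totals 2 and 4). E2F4, a family member known mainly as a repressor, rose (0.56, corrected 0.19), and the activator E2F3 fell (-0.50, corrected -0.36). RB1, which encodes the retinoblastoma protein itself, fell from 17.3 ± 0.191 to 10.8 ± 1.68 CPM (-0.76 ± 0.14, edgeR adjusted p = 0.000144; corrected -0.40). TFDP2, a dimer partner of E2F proteins, fell as counted (-0.31) and did not pass corrected (-0.078). Of 25 tested genes of G2 and mitosis, which act after replication, 12 were higher and 4 lower (median 0.17; corrected 15 and 1, median 0.28; library totals 14 and 2). Their smallest adjusted p values belonged to AURKB (1.06, corrected 0.67), CDC20 (0.72, corrected 0.33), CENPA (0.89, corrected 0.73) and KIF20A (0.64, corrected 0.62), all higher. The members' medians were 0.32 and 0.28, so after correction the replication and the mitotic genes had about the same median; no test compared the lists.

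Of 11 CDK inhibitors and p53 targets 4 were higher and 3 lower (corrected 2 and 2; library totals 5 and 2). The 3 of 11 lower and both corrected counts are about the background share. CDKN2B, an inhibitor of CDK4 and CDK6 that blocks S phase entry, fell from 16.97 ± 0.710 to 9.96 ± 0.933 CPM (-0.85, corrected -0.73). The related inhibitor CDKN2C rose (0.74, corrected 0.42), as did the stress gene GADD45A (0.98, corrected 0.73), and CDKN2A rose as counted (0.65) and did not pass corrected (0.10). CDKN1A, the p21 gene, whose protein binds CDK2 and PCNA, was chosen after its values were seen: it fell from 27.4 ± 3.02 to 22.8 ± 2.88 CPM (-0.34, corrected -0.71), with libraries that overlapped, and the call ended with library totals (-0.26).

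**Figure D5:**
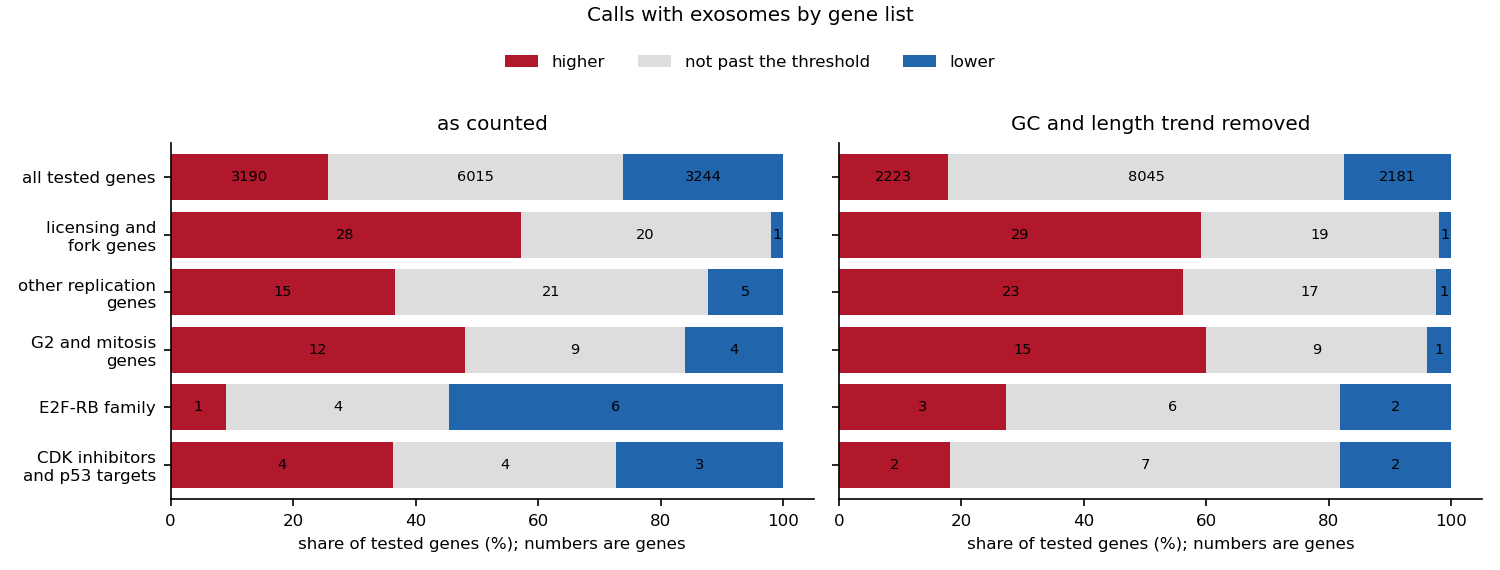
Share of the tested genes of each list that were higher (red), not past the threshold (grey) or lower (blue) with exosomes in edgeR's test at an adjusted p of 0.05, as counted (left) and with the GC and length trend removed (right); numbers are genes. The licensing and fork genes have 28 and 29 higher with 1 lower in each panel, ORC2 on the left and RFC2 on the right. The E2F-RB family has more lower than higher genes as counted.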

How the data were processed

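RNA sequencing of 6 SK-MES-1 libraries gave the data. STAR and GRCh38 (hg38) are named in the submitters' processing notes. The counting program, annotation and strand setting were not given in the sources used here. Per the file headers, the deposited table holds raw read counts per gene, which all tests used, and the authors' FPKM, used for levels between genes. The deposited normalized signal, the authors' log2 fold changes and the authors' p-values were not used. Members and lists were chosen with earlier results of these data known.

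Genes passing filterByExpr were scaled by TMM and tested with edgeR 4.0.16 (quasi-likelihood, robust; R 4.3.3), with Benjamini-Hochberg adjustment over 12449 genes and a threshold of 0.05. CPM is counts over the library total, scaled to 1e6. It leaves out the TMM factors (0.962 to 0.983 in control, 1.01 to 1.04 with exosomes) that the fitted fold changes include. Near 0 the CPM means and the log2 fold change can thus differ in direction, as for RRM1 and RPA3. The corrected fit used an offset from a loess of each library's log2 CPM (prior count 2, span 0.3) on transcript GC content and length. Code was tested on simulated data. Alternatives were RLE factors, library totals, other filters, DESeq2 1.42.0, limma-voom 3.58.1, a replicate block, the corrected fit, a threshold of 0.01 and left-out libraries; the corrected fit with left-out libraries was chosen after seeing the data. Without a stated use of strand, reads of overlapping genes cannot be told apart: 23 of 49 members share exon bases with another annotated gene, 17 of them with a coding one. Among these 17 are MCM7, FEN1, TYMS and CHAF1A, described above, and also MCM2, GINS2, RFC4 and POLD1. Gene starts in the table count from 0 and are given here from 1. Libraries had 11346639 to 13334508 counts, and libraries of a group differed by more than counting error (chi-square per gene 2.31 to 16.2), so standard errors include that spread; intervals on promoter shares cover counting error only.

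Values in every library are given for the MCM2-7 subunits, the 12 called members with the smallest adjusted p, members that fell and the G1/S control genes. From each other list up to 4 called genes with the smallest adjusted p are named, plus other replication genes that moved against that list's majority.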

Additional observations from a re-analysis of the deposited data

How the results depend on the processing

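The number of members that were higher stayed between 24 and 32 under every alternative run, against 28, while the background share of higher genes ranged from 12.7% (corrected, without exosome library 2) to 30.6% (library totals). RLE factors, limma-voom, both other filters and the main fit gave the same calls among members, and DESeq2 ended POLD3 and RFC5. The number lower was 1, with a range of 1 to 3 when single libraries were left out (2 without control library 3, 3 without exosome library 3), 4 without both libraries 3, and 0 to 1 in the corrected fit with single libraries left out (0 without exosome library 2). Over all genes the correction took the calls from 3190 higher and 3244 lower to 2223 and 2181. For the level of each member relative to the other members, PCNA over the median member, taken within each control library and averaged over the 3, was 7.58 in FPKM and 8.31 in counts per kilobase. The shorter motif forms TTCCCGC and TTGGCGC were in 64.3% of member promoters, against 40.5% for the longer ones, and in 9.23% of all promoters and 14.9% of those of tested genes; the order of members that were higher (60.9%) and the others (68.4%) turned from that of the longer forms (47.8% and 31.6%).

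Direction turned, in log2 fold change, for these genes, and the cause was not tested. With the correction the values were 0.082 for DBF4, 0.071 for PRIM2, 0.090 for RFC1, -0.25 for RFC2, 0.11 for RFC3, 0.076 for RRM1, -0.14 for TK1, -0.0019 for E2F1 and 0.0049 for MCMBP. With the replicate block and the correction they were 0.081 for DBF4, 0.070 for PRIM2, 0.092 for RFC1, -0.24 for RFC2, 0.12 for RFC3, 0.074 for RRM1, -0.12 for TK1, -0.00077 for E2F1 and 0.0052 for MCMBP. With library totals they were 0.043 for PRIM1, 0.053 for PRIM2, 0.056 for POLE2, 0.032 for RFC3, 0.074 for RPA3 and 0.034 for RRM1. Without a filter RPA3 had 0.0066. Without both libraries 3, POLA1 had -0.0074, POLE2 0.11 and RPA3 0.012. With libraries left out the ranges were -0.040 to 0.14 for POLA1, -0.10 to 0.038 for PRIM1, -0.097 to 0.039 for PRIM2, -0.11 to 0.11 for POLE2, -0.14 to 0.085 for RFC3, -0.054 to 0.029 for RPA3 and -0.13 to 0.020 for RRM1. Apart from TK1, E2F1 and MCMBP, none of these genes passed the threshold as counted.

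Same-numbered libraries deviated together with correlations of 0.066, 0.10 and 0.21, and each library correlated best with its own number. For library 1 the margin was small: control library 1 had 0.066 with exosome library 1 and 0.062 with exosome library 2. Library 3 of each group had -0.11 to -0.14 with libraries 1 and 2 of the other group. The labels do not say that the numbers pair samples, so the main fit left them unpaired. Whether they pair was not tested. The replicate block gave 29 members higher and 1 lower (background 27.7% and 28.3%) and added MCM6 to the calls, and with the correction it gave 28 and 1 (18.7% and 18.7%), without GINS1.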
